A study of Mus musculus with 15 samples.

Results

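RNA-seq read counts of 4 mouse small cell lung cancer lines taken from the liver (CMV_273, CMV_341, CMV_343 and CMV_344) were compared with those of 4 lines taken from the lung (CMV_228, CMV_231, CMV_232 and CMV_252). These 8 libraries form a table of their own and were chosen by the tissue in their labels, out of 15 libraries in the series. All 8 lines carry the genotype labelled Rb1-/-:Trp53-/-:STAT3-/-:MYC (RPMS), so that loss of Rb1, Trp53 and Stat3 and the MYC allele are shared by both groups and the tissue of origin is the labelled difference. Cells taken out of the tissue had been grown in advanced RPMI medium with glutamax and 1% FCS before RNA was isolated. The labels give neither the age of the mice, the promoter or cell type that drove recombination, nor whether lines came from separate animals, and no liver line shares a number with a lung line. P-values therefore measure the spread between lines only.

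Small cell lung cancer is a neuroendocrine tumour that nearly always lacks the retinoblastoma protein and p53 and that spreads early, often to the liver. Its neuroendocrine forms, among them one marked by NEUROD1, express granule, synaptic and ion channel genes. The tumour can also shift to a less neuroendocrine state, with loss of these genes and with YAP1, REST and Notch activity. STAT3 is the transcription factor that carries signals of interleukin-6 type cytokines through Janus kinases to the nucleus. Lines from a metastasis are compared with lines from the lung to ask which genes differ with the site from which the tumour cells were taken.

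The libraries held 15278868 to 18451248 counts, except that liver line CMV_344 held 9453715. Line CMV_344 also listed 30341 genes with a count, against 21658 to 24549 in the other 7, and counts in 812 of 1958 olfactory and vomeronasal receptor genes, against 115 to 281. Lung line CMV_252 stood apart from the other 7: its log2 values correlated at r = 0.744 to 0.801 with them over 14441 genes, and 10.5% of its counts fell on cytosolic ribosomal protein genes against 2.77% to 4.58% elsewhere. Its summed level of 28 neuroendocrine genes was 519 CPM (counts of a gene relative to the scaled total of its library), against 5803 to 10270 CPM in the other 7 lines, so results are given with and without it. The second library of line CMV_252 differed from this one: Yap1 was at 14.1 CPM there against 212 CPM and Xist at 2397 against 19.6 CPM, each table being scaled on its own. Hepatocyte genes were near 0 in liver lines as in lung lines: 21 genes summed to 1.71 to 5.91 CPM in liver and 2.15 to 6.70 CPM in lung lines, albumin (Alb) reached 0.389 CPM at most, and 5 of the 21 had no count in any library. Leukocyte genes summed to 4.64 to 12.6 CPM and endothelial genes to 2.60 to 11.7 CPM over all 8. The 14 fibroblast and stellate cell genes summed to 158 CPM in liver line CMV_341, with Dcn at 37.2, Thy1 at 35.3 and Acta2 at 17.2 CPM, against 7.11 to 73.3 CPM in the other 7 lines, where Dcn and Acta2 were at most 0.768 and 0.230 CPM. Alveolar and airway genes summed to 16.4 to 141 CPM in lung and 9.33 to 59.4 CPM in liver lines, and bile duct genes to 6.45 to 238 and 64.1 to 464 CPM. Other fibroblast and stellate cell genes did not follow line CMV_341. Reln was at 13.7 CPM there, against 30.3 and 44.7 CPM in liver lines CMV_343 and CMV_344 and 35.5 CPM in lung line CMV_232. Pdgfrb was at 3.96 CPM in line CMV_341 and 4.10 CPM in line CMV_343. The part of these cell type genes in the results was not tested. In such bulk libraries fewer cells of a type and less RNA per cell cannot be told apart. Stat3 was low in every line, at 12.7, 28.5, 15.4 and 22.7 CPM in lung lines CMV_228, CMV_231, CMV_232 and CMV_252 and at 11.2, 15.5, 17.9 and 15.5 CPM in liver lines CMV_273, CMV_341, CMV_343 and CMV_344.

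No gene separated liver from lung lines past the threshold. The quasi-likelihood test of edgeR, adjusted by Benjamini and Hochberg, called 0 of 14441 genes (0%) at 0.05, with 650 genes at an unadjusted p under 0.05 and a lowest adjusted p of 0.0857, and limma-voom also called 0. DESeq2 called 76 of 18707 genes (0.406%), of which 65 were higher in liver lines and 11 lower, and of the 47 that edgeR had also tested, 15 had overlapping groups. Consistent shifts were counted as genes whose 4 liver lines all lay on one side of all 4 lung lines. There were 196 such genes higher in liver lines (1.36% of those tested) and 173 lower (1.2%). The 8 lines can be assigned to the 2 origins, 4 to each, in 70 ways. A gene unrelated to origin is thus expected higher in every liver line in 1 of 70 cases, and likewise lower. Both shares are near that, so the counts alone do not show a difference between origins. Scaling by total counts gave 345 and 85, so the balance of the directions depends on the scaling. A gap of at least 2-fold between the nearest lines, on CPM + 0.5, was left in 12 genes higher in liver lines (0.0831%) and 2 lower (0.0138%). Large mean differences mostly went with overlap of the groups: of 1727 genes with a fitted log2 fold change of at least 1 in size, 1574 (91.1%) had overlapping groups.

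The genes described next are those with the widest gaps among nameable genes of at least 5 CPM in every line of the higher group, up to 12 in each direction, and some of these gaps are under 2-fold. Akap6, Sgpp2 and Rai2 had the widest gaps among the genes higher in liver lines. Akap6, which tethers protein kinase A at the nuclear envelope of muscle and nerve cells (chromosome 12, 52699383 to 53155599, GRCm38), stood at 0.0565, 0.163, 0 and 0.384 CPM in lung lines CMV_228, CMV_231, CMV_232 and CMV_252. In liver lines CMV_273, CMV_341, CMV_343 and CMV_344 it stood at 91.0, 85.5, 18.4 and 52.3 CPM. The lung lines were thus at or near no expression and each liver line was well above them, with a difference of 8.70 on the log2 scale (SE 0.97, edgeR adjusted p = 0.0857, DESeq2 adjusted p = 8.64e-21). The promoter of Akap6 is shown because this gene had the widest gap. It was searched for TTCNNNGAA, the spacing of a STAT site, and for the E-box forms CAGCTG and CACGTG, all of which read the same on both strands. Capitals mark the single match, to TTCNNNGAA, a motif found in 8.3% of 32851 RefSeq promoters of the same 300 bases.

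Akap6 promoter (chr12:52699133-52699432, plus strand, RefSeq, GRCm38.p6): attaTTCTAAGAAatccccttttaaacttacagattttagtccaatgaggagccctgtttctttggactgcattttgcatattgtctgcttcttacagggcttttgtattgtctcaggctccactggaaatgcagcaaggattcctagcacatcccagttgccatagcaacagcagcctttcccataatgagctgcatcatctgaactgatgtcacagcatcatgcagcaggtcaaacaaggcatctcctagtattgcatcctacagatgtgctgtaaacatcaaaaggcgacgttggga

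Sgpp2, a phosphatase of sphingosine phosphate, was at 2.20, 1.30, 0.343 and 0.154 CPM in the lung lines and 18.7, 34.2, 14.5 and 7.88 CPM in the liver lines, with no overlap (log2 fold change 4.22, SE 0.88, edgeR adjusted p = 0.945). Rai2, a retinoic acid induced gene, was at 2.03, 2.06, 1.15 and 0.0768 CPM in lung and 11.1, 7.22, 11.2 and 6.91 CPM in liver lines. In both genes line CMV_252 held the least of the lung lines and every liver line was above all of them. Lrrtm1, a synaptic leucine-rich repeat protein, was at 4.97, 0.923, 9.44 and 0 CPM in lung and 27.8, 25.2, 37.1 and 34.9 CPM in liver lines. Scg2, the granule protein secretogranin, was at 4.46, 2.39, 5.84 and 0.0768 CPM in lung and 13.4, 31.3, 45.8 and 20.1 CPM in liver lines. In Lrrtm1 and Scg2 line CMV_252 was again the lowest lung line, and the other lung lines were still below every liver line.

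Scn3b, a beta subunit of voltage-gated sodium channels, was at 1.75, 2.39, 0.916 and 0.0768 CPM in lung and 5.10, 14.2, 27.9 and 22.4 CPM in liver lines. Tmbim1, a membrane protein with a BAX inhibitor motif, was at 4.29, 4.40, 4.58 and 3.07 CPM in lung and 14.8, 16.7, 10.8 and 26.6 CPM in liver lines (log2 fold change 2.07, SE 0.39, edgeR adjusted p = 0.945). Tmbim1 was even across the lung lines, line CMV_252 included. Etv1, with a gap of over 2-fold, and Srgap3, Parp11 and Pcdh1, with smaller gaps, also belonged to the widest-gap genes. They encode an ETS transcription factor, a Slit-Robo GTPase activator, an ADP-ribosyltransferase and a protocadherin. Etv1 was at 1.75 to 2.81 CPM in lung lines and 6.24 to 52.7 CPM in liver lines, the highest being line CMV_341. Srgap3 was at 0.922 to 19.0 and 33.1 to 49.9 CPM, Parp11 at 6.99 to 9.44 and 15.3 to 27.8 CPM, and Pcdh1 at 2.07 to 11.2 and 17.4 to 49.8 CPM in lung and liver lines. Sgpp2, Lrrtm1 and Tmbim1 each overlap a gene on the other strand with more counts (Farsb, Ctnna2 and Pnkd), and since the strand setting of the counting is not given in the sources used here, reads of such pairs cannot be told apart.

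Among the genes lower in liver lines, the 12 with the widest gaps are described in the same way, of which 2 had a gap of at least 2-fold. Matn4, the matrix protein matrilin (chromosome 2, 164389393 to 164405160, GRCm38), stood at 12.9, 26.4, 50.6 and 26.2 CPM in lung lines CMV_228, CMV_231, CMV_232 and CMV_252. In liver lines CMV_273, CMV_341, CMV_343 and CMV_344 it was at 0.271, 0.214, 0.426 and 0.876 CPM, a difference of -6.05 on the log2 scale (SE 0.67, edgeR adjusted p = 0.0857, DESeq2 adjusted p = 6.02e-19). All 4 lung lines, line CMV_252 among them, thus held Matn4 at levels that no liver line approached. Rbpjl, which encodes a relative of the Notch effector RBPJ (chromosome 2, 164403141 to 164415448), starts inside Matn4 on the other strand. It was at 16, 41.4, 13.2 and 25.1 CPM in lung and 7.54, 0, 0.904 and 2.43 CPM in liver lines, also without overlap, and the counts of this pair cannot be told apart where the genes overlap. The promoters of Matn4 are shown as the counterpart to that of Akap6. The first of its 2 annotated starts holds none of the 3 motifs, and the second holds CAGCTG, in capitals, which 16.3% of the 32851 promoters hold.

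Matn4 promoter, upstream start (chr2:164405111-164405410, minus strand, RefSeq, GRCm38.p6): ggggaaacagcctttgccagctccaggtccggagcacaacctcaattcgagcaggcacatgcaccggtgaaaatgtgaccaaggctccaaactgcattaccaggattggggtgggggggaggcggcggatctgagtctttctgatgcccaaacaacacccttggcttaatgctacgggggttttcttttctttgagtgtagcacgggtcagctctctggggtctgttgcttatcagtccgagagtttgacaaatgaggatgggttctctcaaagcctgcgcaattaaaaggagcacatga

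Matn4 promoter, downstream start (chr2:164404769-164405068, minus strand, RefSeq, GRCm38.p6): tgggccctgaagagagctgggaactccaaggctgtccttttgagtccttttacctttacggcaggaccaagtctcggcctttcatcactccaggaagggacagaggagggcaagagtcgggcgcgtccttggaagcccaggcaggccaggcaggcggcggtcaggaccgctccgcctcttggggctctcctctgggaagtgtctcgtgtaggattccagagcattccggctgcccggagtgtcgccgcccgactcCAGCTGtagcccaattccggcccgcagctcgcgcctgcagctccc

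Of the 24 genes with the widest gaps, 19 had a promoter in the RefSeq set. TTCNNNGAA was found in 4 of these (Akap6, Tmbim1, Scg2 and Parp11), CAGCTG in 3 and CACGTG, which 7.15% of all promoters hold, in 4. A gene was counted if any of its promoters held the motif, and Etv1, Parp11 and Matn4 had more than a single promoter. The shares over all promoters are per promoter, so they are not a like measure.

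Cgnl1, the junction protein paracingulin, was at 19.9, 95.7, 14.8 and 183 CPM in lung and 4.18, 1.18, 1.54 and 1.17 CPM in liver lines (log2 fold change -5.27, SE 0.97, edgeR adjusted p = 0.945, DESeq2 adjusted p = 2.88e-06). Galk1, the galactokinase of galactose use, was at 94.0, 101, 49.6 and 62.6 CPM in lung and 25.1, 27.7, 30.1 and 21.0 CPM in liver lines. Galk1 was lower in every liver line by a smaller factor than Cgnl1 and with less spread within each group (log2 fold change -1.56, SE 0.27). Ezr, which links the membrane to actin, was at 128, 135 and 93.5 CPM in lung lines CMV_228, CMV_231 and CMV_232, higher still in line CMV_252, and at 56.4, 48.1, 65.9 and 60.8 CPM in the liver lines. Nedd9, a scaffold at focal adhesions, was at 20.2, 41.6, 79.2 and 45.6 CPM in lung and 8.24, 11.1, 14.6 and 14.0 CPM in liver lines. Jund, a subunit of the AP-1 transcription factor, was at 102, 139, 176 and 120 CPM in lung and 71.3, 51.0, 78.0 and 68.3 CPM in liver lines. The remaining genes of these 12 widest gaps were Fzd6, a Wnt receptor, Gper1, an oestrogen-binding G protein-coupled receptor, Ddt, a tautomerase, Coil of the Cajal body and Itm2a, a membrane protein. Their edgeR adjusted p was 0.945 in each case, with log2 fold changes from -0.58 for Coil to -2.50 for Itm2a.

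**Figure D1:**
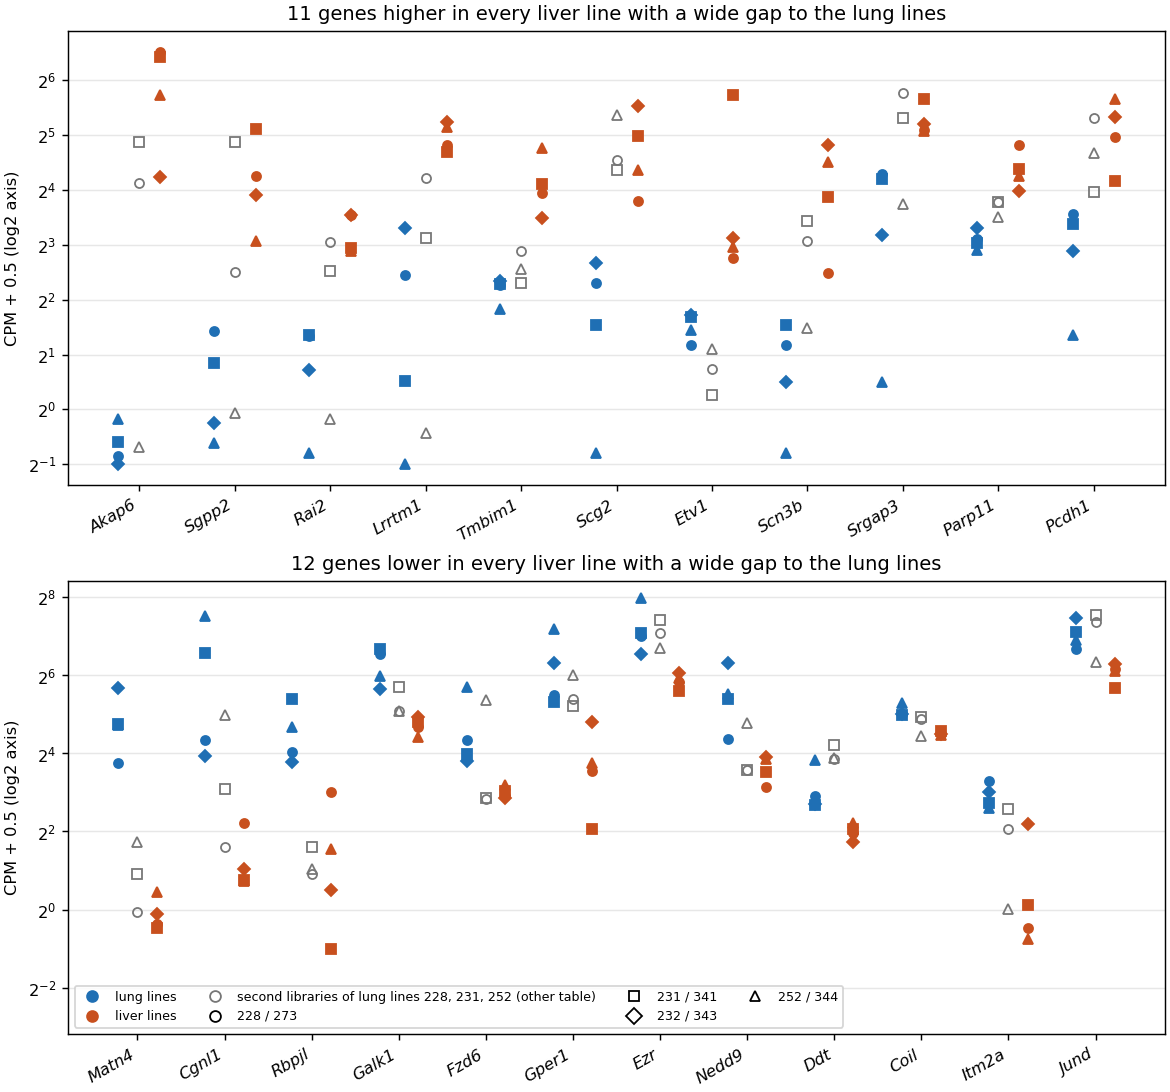
CPM + 0.5 on a log2 axis for 11 genes higher and 12 genes lower in every liver line with a wide gap between groups; each filled point is a line (lung blue, liver orange, shapes give the line) and open grey points are second libraries of lung lines CMV_228, CMV_231 and CMV_252 from the other table. Filled groups do not overlap in any of these genes, by choice of the genes, while the open points of Akap6 and Matn4 lie nearer to the liver than to the lung lines for lines CMV_228 and CMV_231.

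Lung lines CMV_228, CMV_231 and CMV_252 also appear by number in the other table of the series, which played no part in choosing these genes. The labels do not say whether these second libraries came from the same passage or culture. The values of Xist, Yap1, Akap6 and Matn4 differ between the tables, and so do those of other genes. In lines CMV_228 and CMV_231 Trp53 was at 18.01 and 16.77 CPM in the first table and 0.4002 and 0.5705 CPM in the second libraries. Myc was at 17.28 and 31.05 against 0.6773 and 1.204 CPM, and Fdps at 12.53 and 11.4 against 243.9 and 222.2 CPM. Coil, at 31.9 and 30.99 against 28.85 and 30.23 CPM, differed little. Whether the tables counted genes alike was not tested. The second libraries are therefore given as libraries of the same label only. The tables were normalised separately, so values are set side by side and were not tested. In the second libraries Akap6 was at 17.0 CPM in line CMV_228, 28.7 CPM in line CMV_231 and 0.120 CPM in line CMV_252, and at 0.412 to 3.81 CPM in 4 lung lines labelled Rb1-/-:Trp53-/-:MYC, without the Stat3 deletion. The level in lung lines CMV_228 and CMV_231 was therefore near that of liver line CMV_343 in one table and near 0 in the other. Matn4 was at 0.462, 1.36 and 2.85 CPM in the second libraries of lines CMV_228, CMV_231 and CMV_252, below the 12.9 to 50.6 CPM of the lung lines in the first table. Of the 196 genes higher in every liver line, 97 had both second libraries of lines CMV_228 and CMV_231 below the lowest liver line, and 80 had all 3 second libraries there. Of the 173 lower genes, 63 had the second libraries of lines CMV_228 and CMV_231 above the highest liver line and 43 had all 3. Of the widest-gap genes, all 3 second libraries lay on the lung side of every liver line in 4 of 12 higher and 5 of 12 lower genes. Of genes with a gap of at least 2-fold, this held in 6 of 12 higher and 0 of 2 lower genes. Galk1, at 33.8, 51.3 and 33.4 CPM, and Ezr, at 137, 172 and 104 CPM, stayed above every liver line in all 3 second libraries. Tmbim1, at 6.93, 4.40 and 5.37 CPM, and Etv1, at 1.17, 0.697 and 1.65 CPM, stayed below. Scg2, at 22.87, 20.03 and 40.89 CPM, lay within its range in the liver lines. Cgnl1, at 2.524 CPM in the second library of line CMV_228, lay below liver line CMV_273.

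Leaving out lung line CMV_252 did not bring any gene past the threshold: edgeR called 0 of 14860 genes (0%), with a lowest adjusted p of 0.155. Without it 481 genes were higher (3.24%) and 400 lower (2.69%) in every liver line, of which 190 and 161 were also without overlap with all 8 lines. A gene unrelated to origin is expected on a given side in 1 of 35 assignments of the remaining lines, and these shares are again near that. A 2-fold gap was left in 15 genes higher (0.101%) and 10 lower (0.0673%), and all 12 and 2 genes found with line CMV_252 were among them. Sox2, a transcription factor of lung progenitor and neuroendocrine cells, was at 114, 95.3 and 112 CPM in lung lines CMV_228, CMV_231 and CMV_232, 36.0 CPM in line CMV_252 and 39.6, 3.69, 30.5 and 46.6 CPM in the liver lines. Cacna1h, a T-type calcium channel, was at 117, 351 and 149 CPM in the same 3 lung lines, 5.07 CPM in line CMV_252 and 38.1, 11.1, 20.6 and 45.4 CPM in the liver lines. Grxcr2, at 65.0, 72.0 and 149 CPM in those 3 lung lines and 0.588 to 28.9 CPM in liver lines, and the uridine phosphorylase gene Upp1, at 17.8, 53.2 and 54.4 CPM and 0.267 to 6.01 CPM, had the same pattern. Line CMV_252 held them at 0.23 and 0.384 CPM. In the second libraries of lines CMV_228 and CMV_231 Grxcr2 was at 16.9 and 31.8 CPM and Upp1 at 3.39 and 40.1 CPM. Line CMV_228 thus lay within the liver range of both there, whereas Sox2 and Cacna1h stayed above every liver line in these libraries. Zeb2, a transcription factor of epithelial-mesenchymal transition, was at 0.229 to 1.02 CPM in lung lines CMV_228, CMV_231 and CMV_232. It was at 27.4 CPM in line CMV_252 and 4.79 to 28.6 CPM in the liver lines. Aldh1a2, a retinoic acid synthesis enzyme, owed its mean to line CMV_231, with 404 CPM there, 6.55 and 7.15 CPM in lines CMV_228 and CMV_232 and 0.426 to 2.39 CPM in the liver lines.

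Of 550 tested genes on 32 lists of pathways and cell types, 0 passed edgeR's threshold, 13 were higher in every liver line (2.36%) and 8 lower (1.45%), beside 1.36% and 1.2% over all tested genes. Of the tested cholesterol synthesis genes, 3 of 23 were lower in every liver line and none higher, with a median log2 fold change of -0.56 beside -0.02 over all tested genes. These were Srebf2, the transcription factor that switches the pathway on, at 521 to 638 CPM in lung and 286 to 442 CPM in liver lines, Fdft1, the squalene synthase, at 137 to 227.5 and 86.4 to 124 CPM, and Fdps, the farnesyl diphosphate synthase, at 11.4 to 20.2 and 4.28 to 8.83 CPM. Without line CMV_252 the lanosterol synthase Lss, the last-step reductase Dhcr7 and Srebf1 joined them, 6 of 23 in all. Over all genes tested without that line, 2.69% were lower in every liver line. The 24 measured genes of the list summed to 3334 to 4499 CPM in lung lines and to 2300, 3290, 2748 and 1550 CPM in liver lines CMV_273, CMV_341, CMV_343 and CMV_344. Every liver line was below every lung line in this sum, by a narrow margin in line CMV_341, and line CMV_344, the smallest library, was the lowest. Fdft1 overlaps Ctsb on the other strand, which had a like number of counts. In the second libraries of lung lines CMV_228, CMV_231 and CMV_252, Fdps was at 244, 222 and 85.5 CPM, far above its level in the lung lines compared. Srebf2 was at 536, 540 and 158 CPM there and Fdft1 at 196, 179 and 111 CPM. In the second library of line CMV_252 Srebf2 was thus below every liver line and Fdft1 within its liver range.

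Of 24 tested receptor kinase genes, 3 were higher in every liver line (Erbb4, Alk and Kit) and 1 was lower, beside 1.36% and 1.2% of all tested genes. Erbb4, a neuregulin receptor, was at 0.307 to 5.59 CPM in lung and 7.05 to 12.7 CPM in liver lines, and Alk, a neural receptor kinase, at 0.230 to 2.60 and 2.73 to 8.95 CPM. Kit, the stem cell factor receptor, named outside the rule to complete this count, was at 29.7, 52.5, 68.0 and 15 CPM in lung and 68.9, 325, 84.6 and 91.1 CPM in liver lines, so that line CMV_273 lay just above lung line CMV_232. Of the neuroendocrine list, 2 of 28 members were higher in every liver line (Scg2 among them) and none lower, and of the cell adhesion list 2 of 28 (Chl1 among them). Sema3c, a secreted axon guidance protein, was at 1.25 to 2.06 CPM in lung lines and 4.29, 114, 18.9 and 4.28 CPM in liver lines, so that line CMV_341 set its mean. Mybpc1, a myosin-binding protein of muscle, was at most 0.109 CPM in lung lines and 1.09, 3.85, 1.01 and 1.46 CPM in liver lines (edgeR adjusted p = 0.945).

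Jak2, a Janus kinase upstream of STAT3, was the only one of 22 tested genes of interleukin-6 signalling that did not overlap. Over all tested genes, 1.36% were higher and 1.2% lower in every liver line. Jak2 was at 17.1 to 33.4 CPM in lung and 37.0 to 51.4 CPM in liver lines. The cell cycle inhibitor gene Cdkn1b was at 163 to 240 and 268 to 372 CPM. In the Wnt and transforming growth factor list 2 of 32 tested genes were lower in every liver line, beside 1.2% of all tested genes. These were the ligand gene Bmp4, at 2.92 to 11.0 CPM in lung and 0.486 to 2.82 CPM in liver lines, and its receptor gene Bmpr1a, at 88.1 to 103 and 43.2 to 73.6 CPM. Egln3, an oxygen-sensing hydroxylase, was at 8.61 to 18.1 and 1.23 to 7.10 CPM, and the X-linked histone demethylase gene Kdm6a at 34.5 to 68.0 and 69.1 to 110 CPM. None of these differences passed edgeR's test (adjusted p = 0.945 each). In the second libraries of lung lines CMV_228, CMV_231 and CMV_252 Jak2 was at 30.7, 45.3 and 15.7 CPM, so that line CMV_231 lay within its liver range. Bmp4, Egln3 and Kdm6a also had second libraries that overlapped the liver lines, and Cdkn1b and Bmpr1a did not. With line CMV_252 kept, the lists for interferon response, nucleic acid sensing, MHC class I, NF-kB, Notch, mesenchymal and epithelial genes had no member without overlap. Without that line some members were higher in every liver line, beside 3.24% of all tested genes. These were 1 of 17 nucleic acid sensing genes (Tmem173), 2 of 18 NF-kB (Rel and Cxcl16), 1 of 17 Notch (Notch1) and 2 of 14 mesenchymal genes (Zeb2 and Itga5). No member of these lists was lower, and the interferon, MHC class I and epithelial lists still had no member without overlap.

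The regulators that define small cell lung cancer subtypes differed among lines more than between origins. Neurod1, the factor of a second neuroendocrine subtype, was at 8.13, 9.82, 7.84 and 0.0768 CPM in lung and 33.9, 64.1, 0.798 and 0.584 CPM in liver lines, so that 2 liver lines lay above and 2 below lung lines CMV_228, CMV_231 and CMV_232. Mycl was at 9.09, 6.19, 35.2 and 8.61 CPM in lung and 35.2, 50.6, 15.6 and 55.7 CPM in liver lines, Mycn at 13.8, 6.95, 1.83 and 0.230 and at 17.3, 20.3, 15 and 8.95 CPM. Both paralogues of Myc tended higher in liver lines with overlap (log2 fold changes 1.41, SE 0.63, and 1.43, SE 0.94, edgeR adjusted p = 0.945 each). In the second libraries of lung lines CMV_228, CMV_231 and CMV_252 Mycl was at 45.4, 39.9 and 6.415 CPM. Lines CMV_228 and CMV_231 thus lay within its liver range there. Mycn, at 7.14, 6.81 and 0.899 CPM in these libraries, stayed below every liver line. Myc was at 17.3 to 75.7 CPM in lung and 25.8 to 47.2 CPM in liver lines. Yap1 was at 212 CPM and Rest, a repressor of neuronal genes, at 35.6 CPM in lung line CMV_252 only, against at most 15.1 and 6.23 CPM in the other 7 lines. Nfib, a transcription factor tied to metastasis of this tumour in mice, was at 711 to 790 CPM in all 4 liver lines and at 1129, 865, 1046 and 257 CPM in lung lines CMV_228, CMV_231, CMV_232 and CMV_252. Pou2f3, of the tuft cell subtype, was at most 0.461 CPM anywhere and was not tested.

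**Figure D2:**
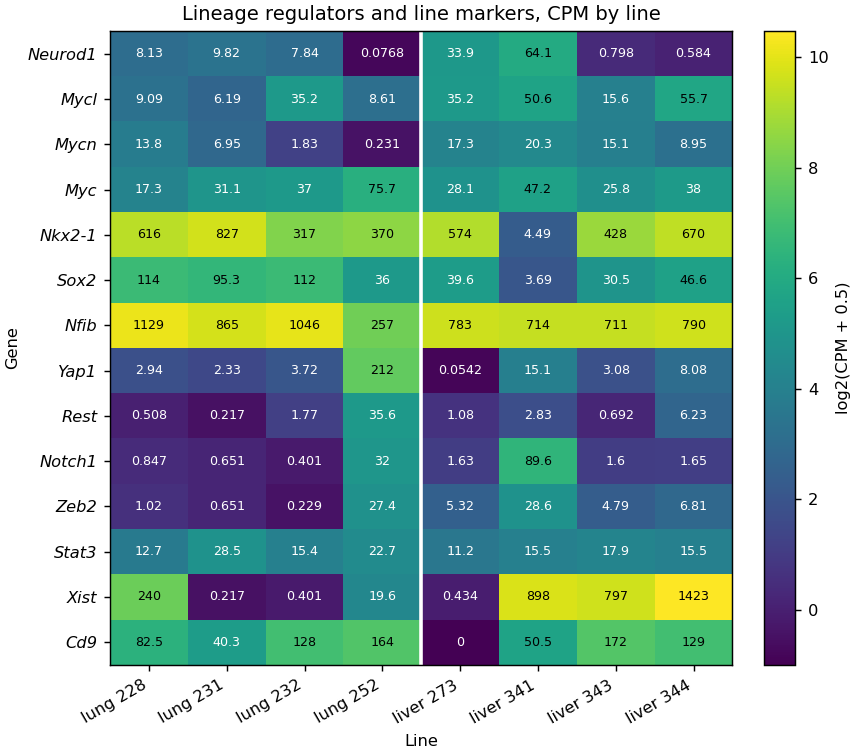
Heat map of CPM (printed in each cell, colour on the scale log2 of CPM + 0.5) for subtype regulators and genes that mark single lines, with the 4 lung lines left and the 4 liver lines right of the white bar. Liver line CMV_341 holds little Nkx2-1 and the most Notch1, while Xist is high in liver lines CMV_341, CMV_343 and CMV_344 and not in line CMV_273.

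The liver lines did not form one group across genes. Over 14441 genes, log2 values of pairs of liver lines correlated at 0.873 to 0.937, pairs of lung lines other than CMV_252 at 0.898 to 0.956, and liver with lung lines other than CMV_252 at 0.871 to 0.935. All libraries share one table and one gene set, so these values only rank the pairs. Liver line CMV_273 was nearest to lung line CMV_228 (0.935) and less near to each of the other liver lines (0.873 to 0.887), whereas lines CMV_343 and CMV_344 were nearest to each other (0.937). On principal component 1 (40.9% of variance) line CMV_252 lay alone, and on component 2 (17.9%) liver lines CMV_341, CMV_343 and CMV_344 lay at 45.7 to 61.1, lung lines between -31.8 and 10.3, and liver line CMV_273 at -91.4. Neither component separated the origins (2 components, exact two-sided permutation p = 0.771 and 0.457, adjusted 0.771 each, smallest possible 0.0286). Without line CMV_252 the exact p was 0.371 and 0.771.

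**Figure D3:**
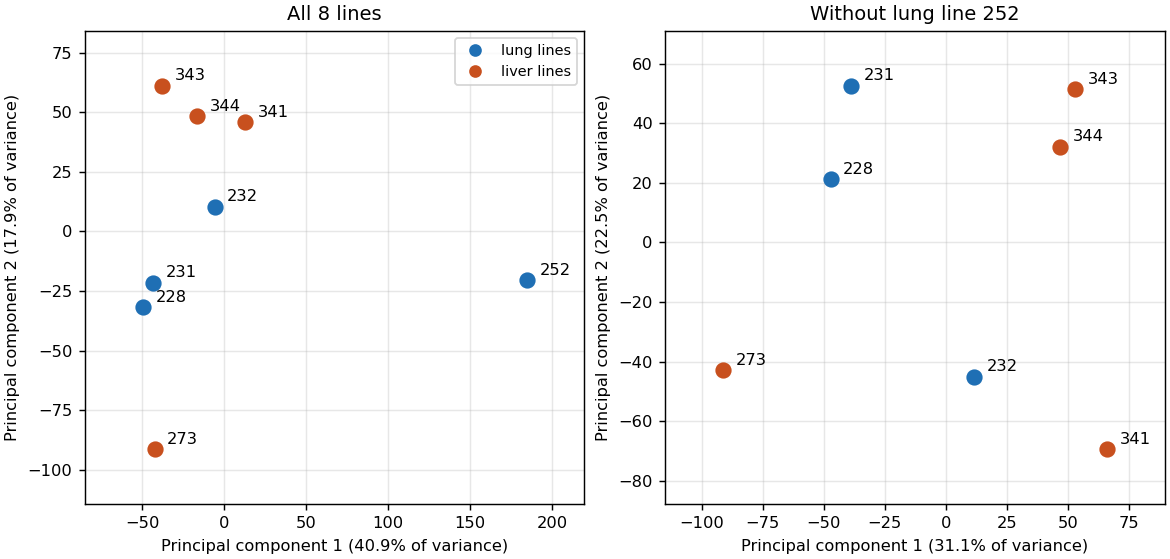
Scores of each line on principal components 1 and 2 of log2 CPM, with all 8 lines (left) and without lung line CMV_252 (right); axis labels give the share of variance. Liver line CMV_273 lies on the far side of the lung lines from liver lines CMV_341, CMV_343 and CMV_344 on component 2 with all lines and on component 1 without line CMV_252.

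Line CMV_273 was the line whose omission left the most genes higher in every liver line. Without it edgeR called 0 of 14999 genes (0%), 591 genes were higher (3.94%) and 448 lower (2.99%) in every remaining liver line, and a 2-fold gap was left in 73 genes higher (0.487%) and 6 lower (0.04%). Dropping any 1 line raises such counts by construction, and the other single omissions gave 348 to 481 higher and 321 to 549 lower genes, with a 2-fold gap in 15 to 21 higher and 3 to 10 lower genes. The most lower genes, 549, were left without lung line CMV_231, and the most with a 2-fold gap, 10, without lung line CMV_252. Over 11141 genes with a mean of at least 5 CPM, 945 ranged over 8-fold or more within the liver lines, 1546 within the lung lines and 463 within the 3 lung lines without line CMV_252. The median range was 0.849 log2 units within the 4 liver lines and 0.629 to 0.706 within sets of 3 of them, beside 0.623 within the 3 lung lines without line CMV_252. The liver range was wider than the difference of the group means in 91.3% of these genes.

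Genes that separated a liver line from the other 3 by at least 8-fold, at 20 CPM or more, were counted as a description. Line CMV_341 had 61 higher and 21 lower, line CMV_273 had 16 higher and 52 lower, line CMV_343 had 11 and 1 and line CMV_344 had 12 and 2, beside 206 and 258 for lung line CMV_252. In line CMV_341 Nkx2-1, the lung lineage transcription factor, was at 4.49 CPM against 428.5 to 670 CPM in the other liver lines and 317 to 827 CPM in lung lines. Sfta3-ps, its neighbour on chromosome 12, was at 2.14 CPM against 127 to 319 and 60.3 to 268 CPM. The same line held the receptor gene Notch1 at 89.6 CPM against 1.60 to 1.65 CPM in the other liver lines, the retinol transporter gene Stra6 at 194 CPM against 0.266 to 3.52 CPM and the secreted protease gene Htra1 at 40.5 CPM against 0.108 to 0.585 CPM. Lung line CMV_252 also held Htra1 and Notch1 above the remaining lines, at 459 and 32.0 CPM, and had Nkx2-1 at 370 CPM. The sum of the fibroblast and stellate cell genes above was also highest in line CMV_341, though Reln and Pdgfrb were not. Line CMV_341 thus had low Nkx2-1 and Sox2 and high Notch1 and Neurod1 together.

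In liver line CMV_273 the tetraspanin gene Cd9 had 0 counts, where 3 counts would be 0.163 CPM, against 50.5 to 172 CPM in the other liver lines and 40.3 to 164 CPM in lung lines. Cst3, the protease inhibitor cystatin, was at 0.108 CPM there against 46.8 to 186 and 32.7 to 55.7 CPM. Line CMV_273 held Clca3b at 137 CPM against 0 to 1.17 CPM in other liver lines, Vwa5b1 at 51.7 against 0.214 to 1.28 CPM and the forkhead gene Foxd1 at 42.2 against 0.160 to 1.07 CPM. Foxd1 was also at 19.0 and 36.1 CPM in lung lines CMV_228 and CMV_252, so it did not mark line CMV_273 among all 8. In line CMV_343 Selenop, a secreted selenium carrier, was at 233 CPM against 3.31 to 5.91 CPM in the other liver lines, while lung lines ranged from 0.0572 to 756 CPM. Line CMV_343 also held the helix-loop-helix gene Atoh8 at 48.8 CPM and Trank1 at 53.4 CPM, against at most 2.67 and 3.70 CPM in the other liver lines, while Atoh8 was also at 30.7 and 17.0 CPM in lung lines CMV_228 and CMV_252. Line CMV_344 held Faim2, an inhibitor of Fas-induced death, at 100 CPM and Tox2 at 27.8 CPM against at most 1.39 and 1.06 CPM in the other liver lines and 1.92 and 6.45 CPM in lung lines, and lacked the collagen gene Col8a1, at 0.486 against 24.0 to 41.2 CPM, and the desaturase gene Scd1, at 3.11 against 44.6 to 108 CPM. In lung line CMV_252 Pbxip1 was at 1678 CPM and the natriuretic peptide receptor gene Npr3 at 510 CPM against at most 2.01 and 1.20 CPM in the other lung lines, and Ddc, an enzyme of amine synthesis, was at 3.15 CPM against 575 to 825 CPM.

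**Figure D4:**
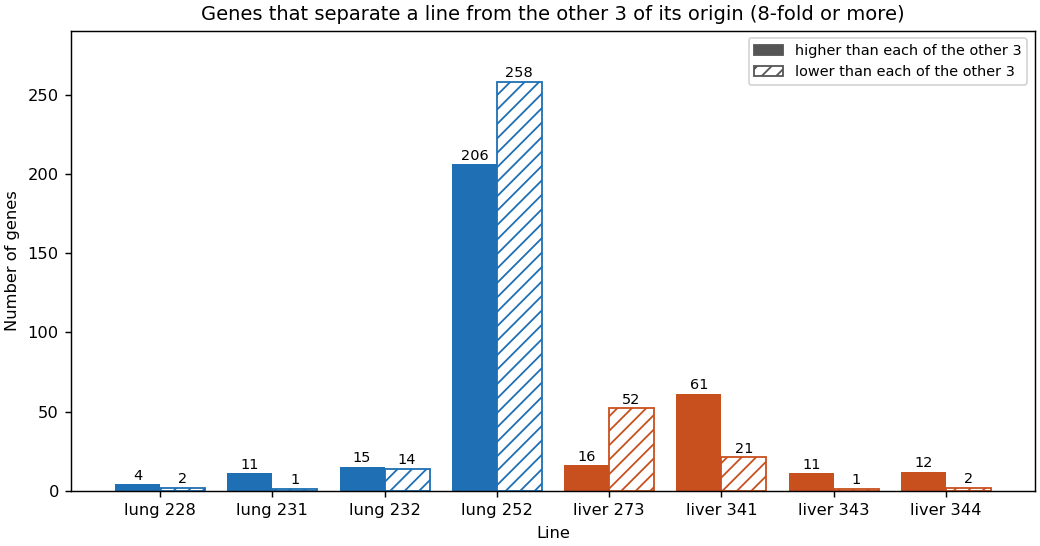
Number of genes at least 8-fold higher (filled bars) or lower (hatched bars) in a line than in each of the other 3 lines of its origin, with lung lines in blue and liver lines in orange. Lung line CMV_252 has 206 and 258 such genes, and among liver lines CMV_341 and CMV_273 have the most.

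Median expression over whole chromosomes differed between lines. For each line the median over a chromosome's genes of log2 CPM minus the mean of the 8 lines was taken, over 383 to 1146 tested genes a chromosome. Chromosome 9 was at -0.48 in lung line CMV_228 and -0.51 in liver line CMV_273 and at 0.33 in liver line CMV_341. Chromosome 14 was at -0.37 and -0.51 in liver lines CMV_273 and CMV_341 and at 0.24 and 0.27 in lines CMV_343 and CMV_344. Chromosome 3 was at 0.37 in lung line CMV_232 and 0.34 in liver line CMV_344, chromosome 8 at 0.48 in lung line CMV_232, chromosomes 6 and 18 at 0.37 and 0.33 in liver line CMV_273, and the X chromosome at -0.34 in lung line CMV_252. In all, 11 medians were at least 0.3 in size, in 6 of the lines, and no such shift was shared by all lines of an origin. The genes without overlap were spread unevenly: chromosome 8 held 30 of the 173 lower genes (3.8% of its 790 tested) and 4 of the 196 higher, chromosome 14 held 13 lower and 1 higher, and chromosome 18 held 1 lower and 15 higher (3.92% of 383). The part of the chromosome medians in these counts was not tested. Xist, the RNA of the inactive X chromosome, was at 240, 0.217, 0.401 and 19.6 CPM in lung lines CMV_228, CMV_231, CMV_232 and CMV_252 and 0.434, 898, 797 and 1423 CPM in liver lines CMV_273, CMV_341, CMV_343 and CMV_344. The Y-linked gene Ddx3y was at 30.2 CPM in lung line CMV_231 and at most 0.154 CPM in the other 7, so that lung line CMV_232 and liver line CMV_273 had under 1 CPM of both.

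**Figure D5:**
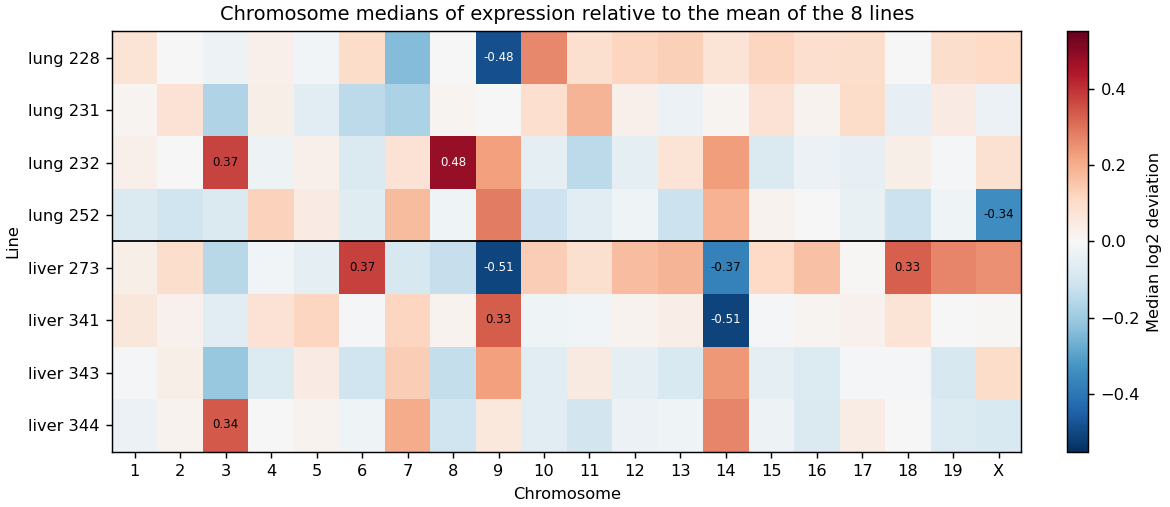
Median over the tested genes of each chromosome (columns) of log2 CPM minus the gene's mean over the 8 lines (rows), with medians of at least 0.3 in size printed. Chromosome 9 is low in lung line CMV_228 and liver line CMV_273 and chromosome 14 in liver lines CMV_273 and CMV_341, and no column has one colour in all liver lines and the other in all lung lines at that size.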

How the data were processed

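RNA was extracted with the AccuPrep kit and libraries were made with the TruSeq Stranded RNA kit, per the labels' protocols. The authors aligned reads to GRCm38 with HISAT2 and assembled them with StringTie, per the submitters' processing notes (versions and the strand setting of counting are not given in the sources used here), and deposited raw counts per gene in 2 tables. The table with the 8 lines compared holds 53618 named genes; 1832 records without a gene name (0.0569% to 0.0799% of counts) were left out, and 27 names had been turned into dates. Counts of 14441 genes that passed filterByExpr were tested with edgeR 4.0.16 (R 4.3.3, TMM scaling, quasi-likelihood, Benjamini-Hochberg threshold 0.05), all 8 lines in one fit with no covariate; DESeq2 1.42.0 and limma 3.58.1 (voom) were alternatives. CPM used TMM-scaled library sizes. The gap between groups was taken on log2 of CPM + 0.5. Named genes were fixed pathway genes, the 12 widest gaps each way among genes of at least 5 CPM in the higher group, 8 each way without line CMV_252, line-specific genes (8-fold, 20 CPM) and up to 3 members of each list; results of some genes are not reported here. The fits were tested on simulated data. Members and lists were chosen with earlier results of these data known. Alternatives covered scaling, filter, pseudocount, threshold, thinning to 9453715 counts and leaving out each line.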

Additional observations from a re-analysis of the deposited data

Results flagged for a closer look

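In 22 of 122 groups of 4 lines, 1 line lay far from the other 3 by Dixon's criterion, and 8 of these were lung line CMV_252. The rate of about 1 in 20 groups by chance holds for values not chosen beforehand. Most genes here were chosen from these same data, and Zeb2 and Prss23 by the rule that leaves out line CMV_252. The 22 flags are therefore a description and cannot be set against that rate. In line CMV_252 Yap1 was at 212 CPM, Tmem173, the DNA-sensing adaptor STING, at 11.4 CPM, Rest at 35.6 CPM, Fzd6 at 51.8 CPM, Ddt at 13.8 CPM, Coil at 38.6 CPM, Zeb2 at 27.4 CPM and Prss23 at 0 CPM. Among the other lung lines, Mycl was at 35.2, Mb21d1, the DNA sensor cGAS, at 27.4 and Fdps at 20.2 CPM in line CMV_232, and Aldh1a2 was at 404 CPM in line CMV_231. Among the liver lines, Rb1 was at 162, Mb21d1 at 21.9 and Itm2a at 4.1 CPM in line CMV_343. Etv1 was at 52.7, Zeb2 at 28.6, Sema3c at 115 and Mybpc1 at 3.85 CPM in line CMV_341. Cgnl1 was at 4.18 and Kdm6a at 110 CPM in line CMV_273, and line CMV_344 held 9453715 counts.

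In libraries outside the comparison, Akap6 stood at 17.0 CPM in the second library of lung line CMV_228 and 28.7 CPM in that of line CMV_231, above the 0.384 CPM that was its highest level in the lung lines compared.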

How the results depend on the processing

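No paired analysis was possible because liver and lung lines share no line numbers. The number of genes past the threshold, 0 with edgeR, was 76 with DESeq2, 2 without a filter on low counts and 2 at a threshold of 0.1 (Akap6 and Matn4), and 0 in the other 14 alternatives. Genes higher in every liver line, 196, numbered 345 by total counts, 306 without a filter, 348 to 591 with 1 line left out and 681 without lines CMV_252 and CMV_344. Genes lower, 173, numbered 85, 327, 321 to 549 and 599. Genes at least 2-fold higher, 12, numbered 7 after thinning, 15 to 73 with 1 line left out and 24 without lines CMV_252 and CMV_344; genes 2-fold lower, 2, numbered 3 to 10 and 16. Fewer lines raise such counts by construction. The median SD among liver lines, 0.439, was 0.378 at a mean of at least 5 CPM, 0.415 after thinning and 0.388 to 0.433 with 1 line left out, and that among lung lines, 0.544, was 0.376 (without line CMV_252) to 0.591. Component 2 gave an exact permutation p of 0.0286 (without line CMV_273, the smallest possible) to 0.8 with 1 line left out. Line-specific genes of the 4 liver lines, 176, numbered 383 at 4-fold and 74 at 50 CPM, and list genes without overlap, 22, numbered 58 without line CMV_252.

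Of 56 named genes, 48 kept the sign of their log2 fold change in every alternative. With limma-voom it reversed to 0.08 for Nfib, 1.19 for Tmem173 and 0.24 for Rest. Without lines CMV_252 and CMV_344 it was -0.029 for Rb1, 0.25 for Myc, 1.02 for Yap1, 1.84 for Tmem173 and 0.88 for Rest. With 1 line left out it ranged from -0.38 to 0.31 for Rb1, -0.48 to 0.29 for Myc, -3.90 to 1.14 for Yap1, -0.43 to 0.041 for Nfib, -0.70 to 1.97 for Tmem173, -2.27 to 1.78 for Mb21d1, -2.62 to 1.70 for Rest and -0.37 to 4.15 for Zeb2. The cause was not tested.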

Other observations

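Gene families that stood out were described after their values were seen, so their counts carry no test. Of 82 tested genes of the respiratory chain and ATP synthase, 13 were lower in every liver line and 0 higher, beside 1.2% lower and 1.36% higher over all tested genes. Lower members numbered 10 by upper-quartile scaling, 7 by total counts and 16 without line CMV_252. Over all tested genes, 85 of 14441 were lower by total counts and 2.69% were lower without line CMV_252. Cox6a1, a subunit of cytochrome c oxidase, was at 299, 276, 295 and 342 CPM in lung lines CMV_228, CMV_231, CMV_232 and CMV_252 and at 204, 225, 226 and 183 CPM in liver lines CMV_273, CMV_341, CMV_343 and CMV_344. Their median log2 fold change was -0.31, beside -0.02 over all tested genes. Of 77 mitochondrial ribosomal protein genes, 3 were lower and 0 higher.

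Clustered protocadherins, neuronal adhesion genes of chromosome 18, had 5 of 39 tested members higher in every liver line and 0 lower, beside the same shares over all genes. By total counts 7 were higher, and without line CMV_252 there were 5 higher and 1 lower. Over all tested genes, 345 of 14441 were higher by total counts, and 3.24% were higher and 2.69% lower without line CMV_252. Pcdha2 was at 0.621, 0.217, 0.0572 and 0 CPM in the lung lines and 4.12, 2.67, 12.7 and 6.13 CPM in the liver lines. Members share exons or have near-identical copies, so their counts are uncertain. Of 334 zinc finger protein genes named Zfp, 13 were higher and 0 lower, against 1.36% and 1.2% of all genes. By total counts 23 were higher, without line CMV_252 there were 18 higher and 2 lower, and 1 was lower by relative log expression or upper-quartile scaling. The share of higher genes over all tested genes also rose by total counts and without line CMV_252, to the values given above for these settings.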
